A study of Mus musculus with 21 samples.

Results

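The 10 genes studied belong to the endoplasmic reticulum (ER) and its stress response: Hspa5, Hsp90b1, Pdia4, Pdia6, Calr, Canx, Dnajb9, Xbp1, Atf6 and Herpud1. They were taken by name from a count table of 41608 genes, all 10 were found there, and all 10 passed the filter on low counts that left 12187 genes to test. The choice did not use measured values of the knockdown, but it was made with earlier results of these data known. The study is about HSF1, which switches on the genes of the heat-shock response, and its influence on c-MYC, a transcription factor of cell growth. The question put to these genes was whether ER stress genes respond when HSF1, and with it the supply of cytosolic chaperone transcripts, is lowered.

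Secreted and membrane proteins fold inside the ER with the help of chaperones and of enzymes that form disulfide bonds. When unfolded proteins accumulate there, the sensors IRE1, PERK and ATF6 start the unfolded protein response. ATF6 is cut and moves to the nucleus, IRE1 splices the Xbp1 mRNA into a form that encodes an active transcription factor, and PERK slows translation while favouring ATF4 and its target CHOP (gene Ddit3). Chaperone genes answer ATF6 and XBP1 through the ER stress response element (ERSE), a CCAAT box and a CCACG motif set apart by a short spacer. HSF1 is best known for chaperones outside the ER, through heat shock elements in front of genes such as Hspa8 and Hsp90ab1. Both are cytosolic relatives, of Hspa5 and Hsp90b1.

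RNA was sequenced from mouse embryonic fibroblasts (MEFs) after depletion of ribosomal RNA. Cells that stably express LacZ, a bacterial enzyme used as an inert control, or V5-tagged GCN5 (gene Kat2a), a histone acetyltransferase, were transfected for 2 days with 10 nM control siRNA (siControl, labelled Hsf1 WT) or Hsf1 siRNA (siHsf1, labelled Hsf1 KD). Each line and siRNA pair makes 1 group of 3 libraries, 4 groups in all, so that every RNA sample carries a stable transgene and an siRNA. The sites held by c-MYC came from CUT&RUN, where a nuclease tethered to an antibody releases the DNA near a bound protein, in Hsf1 WT MEFs given ethanol for 7 days and Hsf1 CKO MEFs given 4-hydroxytamoxifen (4-OHT) for 7 days, with an IgG control on mixed cells. The labels say neither how many clones the lines come from nor what drives the deletion, and they call the RNA samples triplicates without naming separate cultures, so p-values measure the spread between these libraries, which may be technical.

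Gene counts summed to 7.22 to 8.16 M (mega) per LacZ library and 3.69 to 4.27 M per GCN5 library, so depth and line coincide. Hsf1, the targeted gene, had 128, 128 and 134 CPM (counts per megacount, scaled by TMM, which assumes that most genes do not change) in siControl LacZ and 57.6, 55.4 and 47.8 CPM in siHsf1 LacZ. In the GCN5 line it had 137, 121 and 138 CPM under siControl and 67.9, 74.5 and 73.0 CPM under siHsf1. Hsf1 thus lay lower in all 6 siHsf1 libraries than in all 6 siControl libraries. Kat2a gave 215, 215 and 219.8 CPM in siControl LacZ and 262, 233 and 245 CPM in siControl GCN5, a log2 fold change of 0.19 ± 0.06 that did not pass the test (edgeR, adjusted p = 0.051). With siHsf1 it had 125, 117 and 130 CPM in the LacZ line, a fall of 0.80 on the log2 scale (edgeR adjusted p = 1.7e-10), and 247, 252 and 244 CPM in the GCN5 line, with a change of 0.01. Its interaction was 0.81 ± 0.09 (adjusted p = 2.3e-07), so that Kat2a moved in the same comparisons as the chaperone results below, and its part in them was not tested. Myc, which encodes c-MYC, had a log2 fold change of -0.60 ± 0.08 with siHsf1 in the LacZ line (edgeR adjusted p = 7.2e-07). In the GCN5 line it had 0.28 ± 0.08 (adjusted p = 0.23), with an interaction of 0.88 ± 0.11 (adjusted p = 2.4e-06). The part of Myc was not tested either. Fibroblast markers were abundant as a sum, with 10 of 10 in the table, 9 tested and 6531 to 7235 CPM in siControl LacZ. Levels differed widely between these markers. Over all libraries Col1a1 had 1200 to 2044 CPM, Col3a1 9.47 to 40.9 CPM and Dcn 3.71 to 8.36 CPM, and Thy1 was at or under 0.122 CPM. Their sum was 9352 to 10790 CPM in siHsf1 LacZ, against 8105 to 8278 CPM in siControl GCN5 and 8400 to 8603 in siHsf1 GCN5. The sum of 10 haematopoietic markers, mostly Cd14 and Cd68, was 26.8 to 27.4 CPM in siControl LacZ and 51.5 to 59.4 CPM in siHsf1 LacZ, while Ptprc stayed at or under 0.271 CPM and Itgam, Adgre1 and Cd3e were at 0. In the GCN5 line that sum was 23.2 to 27.1 CPM under siControl and 25.7 to 30.7 CPM under siHsf1. The 7 epithelial markers summed to 31.7 to 62.5 CPM in all libraries, with Epcam at 0, and the 6 endothelial markers to at most 1.93 CPM. These sums move with the results in the LacZ line below, and their part in them was not tested.

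The stretches in front of the genes show which of them carry the element read by ATF6 and XBP1. Promoter windows of 300 bases (250 before to 50 after the start, RefSeq, build GRCm38.p6) were matched for 9 of the 10 genes, Atf6 having no entry. The full ERSE, which is CCAAT, then 9 bases of any kind, then CCACG, on either strand, was found in Hspa5, Hsp90b1, Pdia6, Calr and Canx. It occurred in 39 of 32851 promoters of this length (0.119%) and in 14 of the 11835 promoters of tested genes (0.118%). The 250 bases before the start of these 5 genes are shown 5′ to 3′ along the gene, with the ERSE in capitals, followed by the 30 bases around the one match of Herpud1 to ERSE-II, which is ATTGG, any base and CCACG, also in capitals.
Hspa5, chr2:34771840-34772089, plus strand: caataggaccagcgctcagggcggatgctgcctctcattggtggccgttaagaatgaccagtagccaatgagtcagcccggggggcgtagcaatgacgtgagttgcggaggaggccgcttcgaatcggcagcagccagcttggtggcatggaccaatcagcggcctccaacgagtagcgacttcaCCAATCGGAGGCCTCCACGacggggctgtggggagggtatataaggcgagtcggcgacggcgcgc
Hsp90b1, chr10:86705445-86705694, minus strand: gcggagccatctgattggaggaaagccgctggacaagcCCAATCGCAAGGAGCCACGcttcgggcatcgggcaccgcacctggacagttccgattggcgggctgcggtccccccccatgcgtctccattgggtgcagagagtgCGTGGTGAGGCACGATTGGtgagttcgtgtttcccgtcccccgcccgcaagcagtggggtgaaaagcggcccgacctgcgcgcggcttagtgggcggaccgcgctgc
Pdia6, chr12:17266339-17266588, plus strand: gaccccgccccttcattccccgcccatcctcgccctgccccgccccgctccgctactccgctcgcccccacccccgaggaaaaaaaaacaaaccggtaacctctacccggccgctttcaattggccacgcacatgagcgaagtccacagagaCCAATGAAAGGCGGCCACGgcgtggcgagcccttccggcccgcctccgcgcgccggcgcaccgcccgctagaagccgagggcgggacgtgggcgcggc
Calr, chr8:84846932-84847181, minus strand: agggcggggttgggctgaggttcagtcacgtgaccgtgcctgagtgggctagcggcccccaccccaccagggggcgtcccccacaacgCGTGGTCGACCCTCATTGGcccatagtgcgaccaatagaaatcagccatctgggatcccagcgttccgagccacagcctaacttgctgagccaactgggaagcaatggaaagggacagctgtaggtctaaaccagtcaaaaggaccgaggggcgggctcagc
Canx, chr11:50325674-50325923, minus strand: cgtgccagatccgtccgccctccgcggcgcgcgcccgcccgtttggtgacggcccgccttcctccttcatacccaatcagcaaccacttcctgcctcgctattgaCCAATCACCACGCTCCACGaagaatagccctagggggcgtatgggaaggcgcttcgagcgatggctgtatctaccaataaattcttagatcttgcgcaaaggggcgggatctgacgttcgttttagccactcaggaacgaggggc
Herpud1, chr8:94386367-94386396, plus strand: ccgggcgctgATTGGGCCACGttggacact

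Hspa5 held its ERSE at bases -65 to -47 from the start. Hsp90b1 held a pair of them, at -212 to -194 and, on the opposite strand, at -107 to -89, which is why its second run of capitals reads CGTGG first and ATTGG last. The Calr element, at -162 to -144, is also on the opposite strand. The Pdia6 element lay at -98 to -80. ERSE-II was found in Herpud1 alone among the 9 genes, in 12 of all promoters (0.0365%) and in 9 of those of tested genes (0.076%). The RefSeq start of Herpud1 lies 291 bases downstream of its start in the count table, which is the one used for peaks, so this site falls inside the gene as that table annotates it. The starts of Pdia6 differ by 6 bases and those of the other 7 genes by none. Every ERSE contains a CCAAT box and a CCACG motif by construction. The CCAAT box by itself was in 8 of the 9 genes, 37.4% of all promoters and 38.1% of those of tested genes. The CCACG motif was in 8 of 9, 32.8% and 47.3%. Pdia4, which has CCAAT boxes, had no full ERSE in this window. No gene of the 9 held the UPRE core TGACGTGG (0.676% of all promoters) or the heat shock element, searched as alternating TTC and GAA blocks, 3 in a row, with 2 bases of any kind between blocks (0.603%). The E-box CACGTG, the site that c-MYC reads, was in Calr and Dnajb9 (7.15% of all promoters), and the ATF4 composite core TGATGCAA in Herpud1 (0.895%). In promoters of tested genes the shares were 0.887% for the UPRE core and 0.473% for the heat shock element. For the E-box the share there was 10%, and for the ATF4 core 0.575%. All motifs were searched on both strands. A match describes letters and does not show binding.

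Peaks of c-MYC at the gene starts were read from the authors' 2 lists, 1 per genotype, which hold 220037 peaks (WT) and 6386 peaks (CKO). A peak counted when it overlapped the 1000 bases on either side of the start, and in each such case below it covered the start itself. In the WT list 8 of the 10 genes had one, against 77.3% of the tested genes with a position. Pdia6 and Dnajb9 had none, their nearest WT peaks lying 15725 and 23404 bases away. In the CKO list 5 of the 10 had one, against 35.2% of the same genes: Hsp90b1, Pdia4, Calr, Canx and Herpud1. Both shares are close to those of all tested genes.

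**Figure D1:**
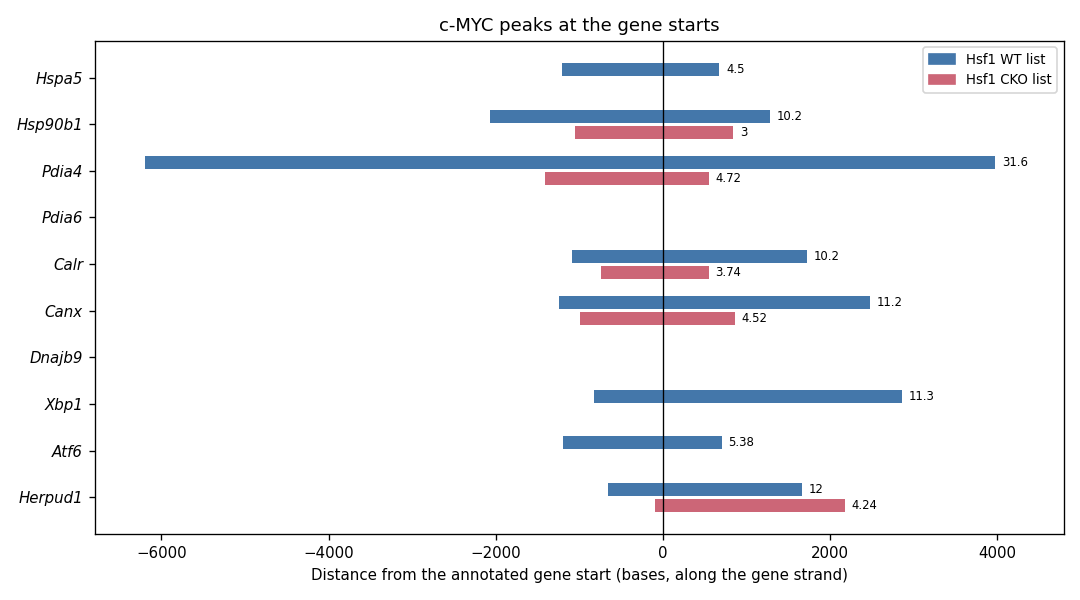
Bars show the extent of each c-MYC peak at the start of the 10 genes, in bases from the annotated start along the gene's strand, for the WT and CKO lists, with the authors' total signal beside each bar. A WT bar is drawn for 8 genes and a CKO bar for 5, Pdia6 and Dnajb9 have neither, and the WT bar of Pdia4 is 10183 bases wide.

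The total signal is the authors' value for each peak, summed over its width. Among these genes the WT peak of Pdia4 was the widest, at 10183 bases, with a total signal of 31.6, above 99.66% of the WT list. Herpud1 followed at 12.05, Xbp1 at 11.3, Canx at 11.2, and Calr and Hsp90b1 at 10.2 each. Atf6 had 5.38 and Hspa5, whose product is the main ER chaperone, the lowest, 4.50. In the CKO list the total signals were 4.72 for Pdia4, 4.52 for Canx, 4.24 for Herpud1, 3.74 for Calr and 3.00 for Hsp90b1. The nearest CKO peak was 26110 bases from the start of Hspa5, 75525 from Xbp1 and 16498 from Atf6. The lists have no replicates and cover 509.9 Mb (WT) and 11.5 Mb (CKO), so single genes were not compared between them.

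By the authors' FPKM, which divides by gene length and so allows levels to be compared between genes, the 10 genes span a wide range in siControl LacZ. Calr, a calcium-binding lectin chaperone, was highest at 521 to 587 FPKM. Hspa5 (BiP), the ER member of the HSP70 family that also holds the stress sensors inactive, followed at 464 to 496. Hsp90b1 (GRP94), the ER member of the HSP90 family, had 317 to 339.9 and Canx, the membrane-bound relative of calreticulin, 156 to 163. The disulfide isomerases Pdia6 and Pdia4 had 132 to 144 and 89.0 to 94.4. Far below came Xbp1 at 34.6 to 36.8, Herpud1, which helps to send misfolded proteins to degradation, at 28.6 to 30.5, and the sensor Atf6 at 7.51 to 9.84. Dnajb9 (ERdj4), a J-domain partner of BiP, was lowest at 4.24 to 5.80. No neighbours in this order overlapped over the 3 libraries.

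With Hsf1 knockdown in the LacZ line and TMM scaling, most of the abundant ER chaperone transcripts among the 10 genes fell. Dnajb9 was called higher, a fragile call whose limits are given below. Hsp90b1, Calr, Canx, Hspa5 and Pdia4 were lower, by 12% (Pdia4) to 25.4% (Hsp90b1), and Dnajb9 was 1.43-fold higher (edgeR quasi-likelihood test, Benjamini-Hochberg adjusted p under 0.05 over all genes tested). That is 5 of 10 lower and 1 of 10 higher, against 19.5% lower and 21.1% higher among all tested genes. The median over the 10 genes was -0.16 on the log2 scale and that over all tested genes 0.02. In these bulk samples, fewer cells of a type and less RNA per cell cannot be told apart.

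Hsp90b1 fell most. It had 895, 950.3 and 890.3 CPM in siControl LacZ and 713, 606 and 721 CPM in siHsf1 LacZ. The highest siHsf1 library lay well under the lowest siControl library. The log2 fold change was -0.42 ± 0.06 (SE, n = 3 per group, edgeR adjusted p = 4.9e-06). Calr had 1045, 1156 and 1028 CPM under siControl and 911, 817 and 899 CPM under siHsf1, with -0.30 ± 0.06 (adjusted p = 0.00015). Canx had 711, 695 and 679.7 CPM and then 583, 531 and 614 CPM, with -0.27 ± 0.06 (adjusted p = 0.00034). Calreticulin and calnexin bind the sugar chains of new glycoproteins, and neither gene's groups overlapped.

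Hspa5 had 1233, 1315 and 1241 CPM in siControl LacZ and 1089, 1027 and 1083 CPM in siHsf1 LacZ. All 3 siHsf1 libraries were lower than all 3 siControl libraries. Its log2 fold change was -0.24 ± 0.05 (edgeR adjusted p = 0.00048). A 95% interval on the 8 residual degrees of freedom alone ran from -0.36 to -0.13. The edgeR test also shares information between genes, so this interval is wider than the test implies. A rise of BiP mRNA is the customary sign of ER stress. Pdia4 had 284, 274 and 292 CPM and then 252, 234 and 262 CPM, with -0.18 ± 0.06 (adjusted p = 0.015). Its call was lost without the second siHsf1 LacZ library, which is the lowest of them (-0.14, adjusted p = 0.063). Pdia6 had 286, 309.9 and 286 CPM and then 272, 256 and 277 CPM. These groups did not overlap either, but -0.13 ± 0.06 did not pass (adjusted p = 0.071).

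**Figure D2:**
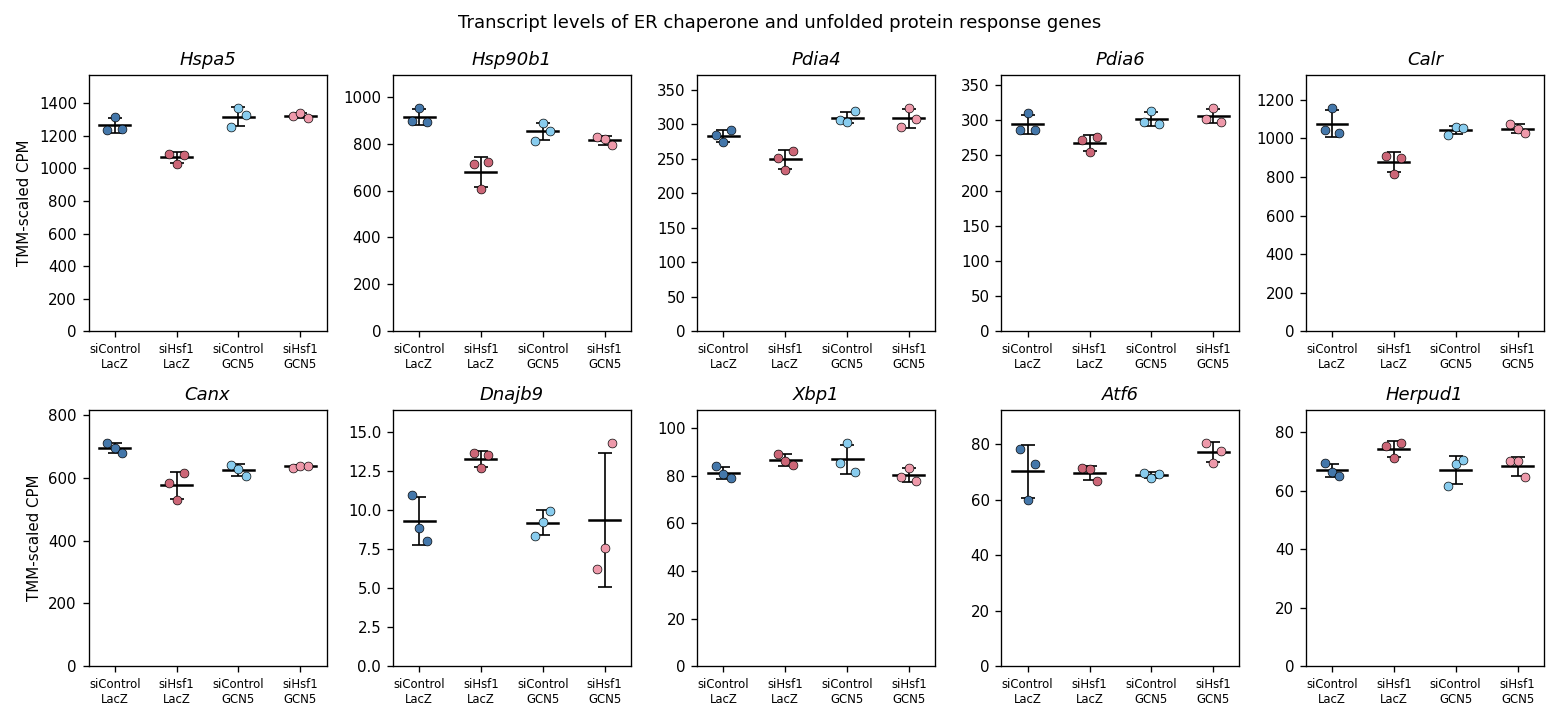
Each panel plots 1 gene's TMM-scaled CPM in the 12 libraries by group, with points for libraries, a line for the mean and bars for the SD (n = 3). In the LacZ line the siHsf1 points of Hspa5, Hsp90b1, Pdia4, Pdia6, Calr and Canx lie under the siControl points, those of Dnajb9, Xbp1 and Herpud1 lie over them, and the GCN5 groups overlap for all but Atf6.

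The scarcer genes of the response lay the other way or did not move beyond their spread. Dnajb9, induced by the spliced form of XBP1, had 10.98, 8.83 and 8.04 CPM in siControl LacZ and 13.6, 12.7 and 13.5 CPM in siHsf1 LacZ. The groups did not overlap. The counts behind these were 80, 70 and 65 against 99, 108 and 111. The log2 fold change was 0.52 ± 0.20 (edgeR adjusted p = 0.042). This call was fragile: it was lost without any one of 5 of the 6 LacZ libraries, all but the first siControl one (0.42 to 0.55, adjusted p = 0.066 to 0.14), and by DESeq2 (0.51, adjusted p = 0.087). Herpud1 had 69.5, 66.3 and 65.2 CPM and then 75.5, 71.2 and 76.3 CPM, with 0.15 ± 0.07 (edgeR adjusted p = 0.11). Xbp1 had 84.0, 80.9 and 79.0 CPM and then 89.2, 86.3 and 84.4 CPM, with 0.09 ± 0.07 (adjusted p = 0.31). For both genes every siHsf1 library lay over every siControl library, yet neither passed the test. Counts per gene do not separate the spliced from the unspliced Xbp1 mRNA. Atf6, at 78.4, 59.7 and 72.7 CPM and then 71.3, 70.9 and 66.8 CPM, overlapped between the groups (-0.01 ± 0.08, adjusted p = 0.93). In all, 6 genes had every siHsf1 library below every siControl library and 3 above, against 23.5% and 26.4% of all tested genes.

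These directions are relative to most other genes, because TMM sets the typical gene at no change. Scaled by the sum of the 92 ERCC spike-in RNAs, which the series names as its normalization control, the all-gene median was -0.35 on the log2 scale and none of the 10 genes passed in this comparison, where 1.03% of all tested genes were called higher and 7.96% lower. The log2 fold changes were then -0.77 ± 0.30 for Hsp90b1 (edgeR adjusted p = 0.083), -0.64 ± 0.30 for Calr (adjusted p = 0.16), -0.64 ± 0.30 for Canx (adjusted p = 0.16), -0.60 ± 0.30 for Hspa5 (adjusted p = 0.19) and 0.13 ± 0.34 for Dnajb9 (adjusted p = 0.84). Of the 10 genes, 4 had an unadjusted p under 0.05 with this scaling: Calr, Canx, Hsp90b1 and Hspa5. Xbp1 and Herpud1 turned negative, at -0.28 and -0.22, so that their direction depends on the scaling. The spike-in share of a library ran from 0.711% to 1.65%, and in 3 of the 4 groups, both LacZ groups among them, it was lowest in the library numbered 1 and highest in the one numbered 2. With the replicate number as a block beside ERCC scaling, an alternative added after the data were seen, 6 of the 10 genes were lower in the LacZ line and none higher, against 29.6% and 2.58% of all tested genes. The 6 were Hsp90b1 (-0.79, edgeR adjusted p = 0.00075), Calr (-0.67), Canx (-0.65), Hspa5 (-0.62, adjusted p = 0.010), Pdia4 (-0.56) and Pdia6 (-0.50, adjusted p = 0.040). Without the block, the common biological coefficient of variation was 0.262 with ERCC scaling and 0.089 with TMM.

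The ratio of 2 counts in a library needs no scaling. Dnajb9 counts were 0.737 ± 0.134% (SD, n = 3) of Hspa5 counts in siControl LacZ and 1.25 ± 0.01% in siHsf1 LacZ. Herpud1 counts were 5.31 ± 0.30% and 6.97 ± 0.07% of Hspa5 counts, and Xbp1 counts 6.44% and 8.13%. Hsp90b1 counts went the other way, from 72.2 ± 0.5% to 63.7 ± 4.1% of Hspa5 counts. Pdia6 counts, also abundant, were 23.3 ± 0.3% and 25.2 ± 0.4%, without overlap. Relative to Hspa5, then, Dnajb9, Herpud1, Xbp1 and Pdia6 lay higher and Hsp90b1 lower with siHsf1 in this line, whatever the library scaling. Hspa5 itself had a log2 fold change of -0.24 with TMM, against an all-gene median of 0.02. A gene at that median thus also lay higher relative to Hspa5, and no all-gene share of such ratios was computed. With TMM, Pdia6 (-0.13) lay under that median, and Xbp1 (0.09), Herpud1 (0.15) and Dnajb9 (0.52) over it. Dnajb9 counts in the GCN5 line were 0.696% and 0.711% of Hspa5 counts, Herpud1 counts 5.10% and 5.17%, and Xbp1 counts 6.59% and 6.07%. These ratios were computed as a description, after the values were seen, and were not tested.

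The cytosolic relatives fell further. Hspa8 counts were 2.17, 2.13 and 2.13 times Hspa5 counts in siControl LacZ and 1.54, 1.57 and 1.52 times in siHsf1 LacZ, a ratio of means of 0.721. Hsp90ab1 counts were 3.65 ± 0.08 times Hsp90b1 counts and then 2.66 ± 0.22 times, a ratio of means of 0.727. In the GCN5 line the same ratios of means were 0.866 and 0.894. Each of the 4 comparisons gave p = 0.1 in a two-sided exact permutation test, the smallest that 3 against 3 libraries allow, and the pairs were chosen after the values were seen.

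In the GCN5 line none of the 10 genes was called with Hsf1 knockdown, by edgeR or by DESeq2, and none had an unadjusted p under 0.05 in edgeR. Only 0.0656% of all tested genes were called higher and 0.0985% lower in this comparison. Hspa5 had 1255, 1368 and 1329 CPM with the control siRNA and 1322, 1337 and 1306 CPM with siHsf1, and these overlap. Its log2 fold change was 0.00 ± 0.05 with a 95% interval, again on the residual degrees of freedom alone, of -0.12 to 0.12. Hsp90b1 had 812, 888 and 854 CPM and then 829.7, 821 and 793 CPM (-0.06 ± 0.06, edgeR adjusted p = 0.76). Calr had 1019.9, 1061 and 1054 CPM and then 1074, 1046 and 1028 CPM, and Canx 641, 629 and 606 CPM and then 633, 638 and 638 CPM. Both overlapped, with changes of 0.01 ± 0.06 and 0.03 ± 0.06. Dnajb9 was scattered in siHsf1 GCN5, at 6.24, 7.58 and 14.3 CPM against 8.36, 9.21 and 9.95 CPM under siControl. Atf6 alone had groups that did not overlap, with 69.6, 67.7 and 69.4 CPM and then 80.4, 73.3 and 77.5 CPM. Its 0.16 ± 0.09 did not pass (adjusted p = 0.57), and 9.13% of all tested genes had such a separation upward and 9.73% downward. The SEs were close to those of the LacZ line, but both rest on a spread estimated over all 4 groups together. They therefore do not measure the spread within the GCN5 libraries, which are the shallower ones.

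Under siControl, none of the 10 genes was called between the GCN5 and LacZ lines, by edgeR or by DESeq2, against 5.46% of all tested genes higher and 4.15% lower. The log2 differences ran from -0.15 for Canx (edgeR adjusted p = 0.092) to 0.13 for Pdia4 (adjusted p = 0.20), and these 2 genes had an unadjusted p under 0.05. Hspa5 was 0.06 ± 0.05.

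The knockdown effect itself differed between the lines for the 4 most abundant of the 10 genes. The interaction, the change in the GCN5 line minus that in the LacZ line, was 0.36 ± 0.09 on the log2 scale for Hsp90b1 (edgeR adjusted p = 0.0039), 0.30 ± 0.08 for Calr (adjusted p = 0.0075), 0.30 ± 0.08 for Canx (adjusted p = 0.0081) and 0.25 ± 0.07 for Hspa5 (adjusted p = 0.016). So 4 of 10 were called higher and none lower, against 11% in each direction among all tested genes. The call of Hspa5 was lost without the first siControl GCN5 library (0.22, adjusted p = 0.056). Pdia4 (0.18 ± 0.08) and Pdia6 (0.15 ± 0.08) did not pass, with adjusted p = 0.13 and 0.21. Dnajb9 had -0.48 and did not pass, but did so without the third siHsf1 GCN5 library, the one at 14.3 CPM (-0.91, adjusted p = 0.021). With ERCC scaling the all-gene median of the interaction was 0.30, the 4 chaperones had 0.56 to 0.66, and none of the 10 genes was called or had an unadjusted p under 0.05, against 0.246% of all tested genes called higher and 0.287% lower. Hsf1 itself fell less in the GCN5 line (-0.88 ± 0.08) than in the LacZ line (-1.28 ± 0.08), an interaction of 0.41 ± 0.11 (adjusted p = 0.011), and the part of this in the chaperone values was not tested.

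**Figure D3:**
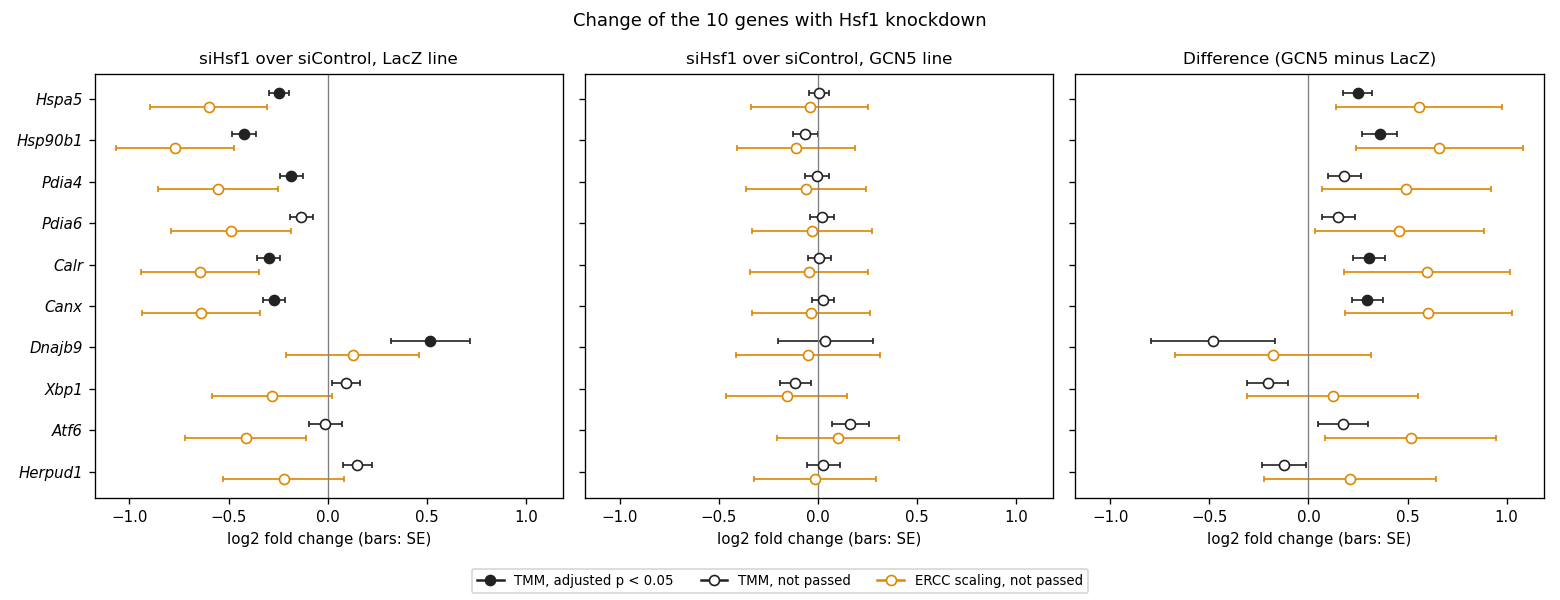
Points give each gene's log2 fold change with Hsf1 knockdown in the LacZ line, in the GCN5 line and their difference, with SE bars, for TMM scaling (black, filled where the adjusted p is under 0.05) and ERCC scaling (orange). With TMM, 6 genes are filled in the LacZ panel, none in the GCN5 panel and 4 in the difference panel, and no ERCC point is filled.

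Other lists of related genes place these changes. The lists were written from general knowledge and are described by counts and medians of log2 fold change alone. Of 17 tested heat-shock chaperones and co-chaperones, a list that includes the mitochondrial Hspd1 and Hspe1, 15 fell in the LacZ line and none rose, with a median of -0.84. Among all tested genes 19.5% were called lower and 21.1% higher there. Hsp90ab1 fell by 0.89 on the log2 scale, Hspa8 by 0.72 and Hspd1 by 1.34. In the GCN5 line 6 of the 17 fell, against 0.0985% of all tested genes, with a median of -0.23. This count was fragile, since leaving out each library in turn gave 1 to 3. With ERCC scaling 1 fell in that line, Hspa4l, which is not among the 6. Under ERCC scaling 12 of the 17 fell in the LacZ line, against 7.96% of all tested genes, and 11 of these are among the 15.

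Of 20 other ER chaperones and folding enzymes, 4 fell with Hsf1 knockdown in the LacZ line and none rose, with a median of -0.03. That share is close to the 19.5% of all tested genes called lower. The 4 were Hyou1, the large HSP70 relative that acts as BiP's nucleotide exchanger, Manf, Pdia3 and Txndc5, at -0.28, -0.21, -0.19 and -0.26, and none of these was called with ERCC scaling. The most abundant of the list, P4hb, the founding disulfide isomerase, had -0.04 ± 0.05 (edgeR adjusted p = 0.56). Calu, a calcium-binding protein of the secretory pathway, had -0.05 ± 0.06. Of 16 genes of the translocon and signal peptidase, through which new chains enter the ER, 4 fell and 1, Sec62, rose, with a median of -0.11. The shares of all tested genes were 19.5% lower and 21.1% higher. Sec61a1, the channel itself, fell by 0.16 and Ssr1, a subunit of the associated TRAP complex, by 0.72, while Ssr2 had -0.02 and Ssr3 -0.13 without passing.

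The lists of degradation genes and of other sensors and factors had medians above 0 with TMM scaling and below 0 with ERCC scaling. With ERCC scaling the all-gene median was itself -0.35. Both lists lay above the all-gene median with either scaling, by 0.15 and 0.18 with TMM and by 0.17 and 0.20 with ERCC. Of 14 tested genes of ER-associated degradation, which takes misfolded proteins out to the proteasome, 3 rose in the LacZ line and none fell, with a median of 0.18, a share close to the 21.1% of all tested genes called higher. Among them were the channel component Derl1 (0.25) and Edem3 (0.34), which trims mannose from misfolded glycoproteins. Without the second siControl LacZ library 6 genes of this list rose, and without the second siHsf1 LacZ library 5. Ubxn4 had 0.07 and Ube2j1 0.14, and neither passed. Of 13 other stress sensors and transcription factors, 6 rose and 2 fell, against 21.1% and 19.5% of all tested genes, with a median of 0.21. Ern1, which encodes IRE1, rose by 0.41 (edgeR adjusted p = 0.0027), although its siControl libraries at 58.5, 43.2 and 63.3 CPM were themselves spread and its siHsf1 libraries were at 70.9, 76.2 and 71.7 CPM. Tmbim6 rose by 0.21 and Creb3l1 by 0.28, while Nfyc, a subunit of the factor that binds the CCAAT box, fell by 0.31. Mbtps1, one of the proteases that cut ATF6, had -0.07 and Eif2ak3, which encodes PERK, 0.06, and neither passed. With ERCC scaling no gene of either list rose, the medians were -0.18 for degradation and -0.15 for the sensors and factors, Derl1 (-0.12), Tmbim6 (-0.15) and Creb3l1 (-0.10) changed sign, and Ern1 was close to 0.

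PERK activity was not measured, and the list named for the PERK and ATF4 branch had the highest median of the ER and heat-shock lists. Of its 12 tested genes 9 rose and 1, Vldlr, fell in the LacZ line, against 21.1% and 19.5% of all tested genes. The median was 0.40. The fibroblast markers, of which 7 of 9 tested rose, had a median of 0.61, and the 3 tested haematopoietic markers 0.92. Vldlr, a lipoprotein receptor, was no longer called by DESeq2 or without the first siControl, the second siHsf1 or the third siHsf1 LacZ library. Ddit3 had 40.5, 54.0 and 43.7 CPM in siControl LacZ and 88.01, 121 and 90.9 CPM in siHsf1 LacZ. Its groups did not overlap, and the log2 fold change was 1.12 ± 0.12 (edgeR adjusted p = 4.8e-07). Atf4 had 605, 701 and 625 CPM and then 751, 974 and 794 CPM, with 0.38 ± 0.08 (adjusted p = 0.00075). Nupr1, a stress-induced chromatin protein, rose by 0.99. Asns, the asparagine synthetase that ATF4 is known to induce, had -0.07 ± 0.07 (adjusted p = 0.45) and Ppp1r15b -0.13, neither passing. In the GCN5 line no gene of these lists other than the heat-shock list was called. Ddit3 had 0.09 ± 0.15 there. Ern1 had 0.34 and Nfyc -0.34, each without overlap between the groups and close to its LacZ value, with interactions of -0.07 and -0.02 (edgeR adjusted p = 0.79 and 0.91). The interaction was called lower for 6 of the 12 genes of the PERK and ATF4 branch, against 11% of all tested genes, and for none of them with ERCC scaling. Among the 6 were Ddit3 (-1.03, adjusted p = 0.00062), Nupr1 (-1.16) and Atf4 (-0.41, adjusted p = 0.015). Under ERCC scaling the median of the 12 in the LacZ line was 0.04 and none was called. Ddit3 then had 0.74 ± 0.30 (edgeR adjusted p = 0.11) and Atf4 -0.01, a change of sign. With the replicate block added 2 were higher and 2 lower, against 2.58% and 29.6% of all tested genes.

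**Figure D4:**
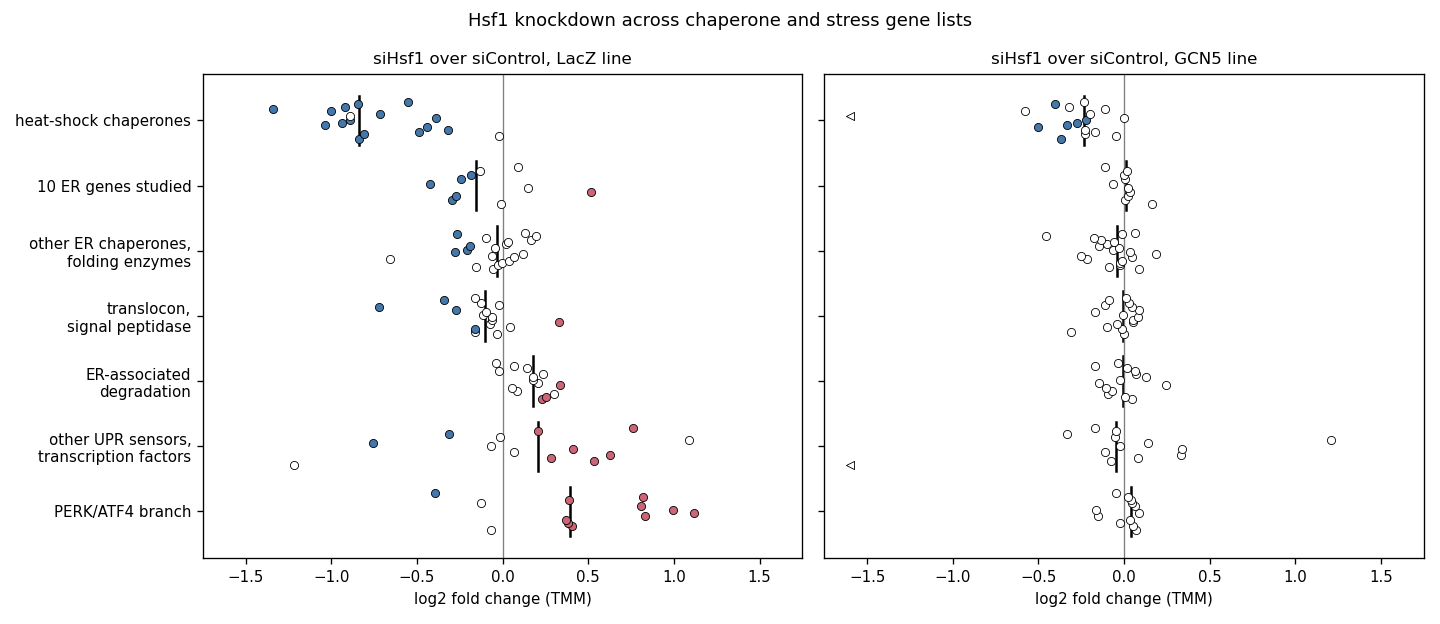
Each point is a tested gene's log2 fold change (TMM) with Hsf1 knockdown in the LacZ line (left) and the GCN5 line (right), by list, filled blue for called lower and red for called higher, with a bar at the list's median. In the left panel the medians run from -0.84 for heat-shock chaperones over -0.16 for the 10 ER genes to 0.40 for the PERK and ATF4 branch, and in the right panel they lie between -0.23 and 0.04. Triangles mark Hspa4l and Atf6b, which lie beyond the left edge at -2.92 and -3.31 and were not called.

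The pattern of Hspa5 over the 12 libraries was most like that of Arf1, a GTPase of Golgi traffic (Pearson r = 0.988 on log2 CPM, among 11081 protein-coding genes ranked), Tuba1b (0.979), Tpx2 (0.976), Vasp (0.976) and Idh3g (0.974). Arf1 had 551, 596 and 556 CPM in siControl LacZ and 476, 446 and 491 CPM in siHsf1 LacZ. Among the other ER genes studied, r with Hspa5 was 0.937 for Pdia6, 0.923 for Calr, 0.891 for Pdia4, 0.836 for Hsp90b1 and 0.606 for Canx. It was 0.06 for Atf6, -0.27 for Xbp1, -0.52 for Herpud1 and -0.63 for Dnajb9. These values share libraries, scaling and the group differences themselves, and are given as a description.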

How the data were processed

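RNA was measured in 12 libraries and c-MYC binding in 5 CUT&RUN samples; the 4 samples with c-Myc siRNA or its control were not analysed here. The authors deposited whole-number counts per gene and a table of FPKM, and per the submitters' processing notes the builds GRCm38 and mm10 and the tools HISAT2, Bowtie2, SEACR and DESeq2 were used. Tool versions, the counter and its strand setting: not given in the sources used here. FPKM was used for levels between genes only. The deposited peak lists, SEACR's stringent output with IgG as control per their names, carry the authors' total signal (coverage summed over a peak) and a score by the authors (highest coverage), which is not reported. No source says if replicates were merged before calling or if signals of the 2 lists are comparable.

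Counts were tested in R 4.3.3 with edgeR 4.0.16 (robust quasi-likelihood, 4 group means, 8 residual degrees of freedom, TMM scaling, filterByExpr with a minimum count of 10), two-sided, with Benjamini-Hochberg adjustment over 12187 genes and calls under 0.05. DESeq2 1.42.0 was an alternative. The scripts were tested on simulated data. ERCC scaling is the named alternative, since the labels give mix 1 for siControl and mix 2 for siHsf1 samples, yet the siHsf1 to siControl log2 ratios of 21 abundant ERCC transcripts ran only from -0.19 to 0.13 in LacZ and from -0.18 to 0.42 in GCN5. Where a gene has no count, its level may be as high as 0.368 to 0.812 CPM, from 3 counts over the library total (counting error only). Of 96 listed genes of the other lists, 95 are in the table. Replicate numbers were checked for pairing. Of 18 same-numbered pairs, 1 had deviations correlated over 0.1 (r of -0.063 to 0.106), and of 36 differently numbered pairs none (-0.080 to 0.068). These ranges largely overlap, so the check cannot exclude weak pairing. The numbers were not taken to pair the libraries with TMM scaling, and the block was fitted as an alternative. The spike-in share did follow the number in 3 of 4 groups, and ERCC values with the block are given too.

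The members, lists, comparisons and tests were chosen with earlier results of these data known. Named genes are the 10 members, the check genes Hsf1, Kat2a and Myc, and the 4 members of each other list with the highest mean CPM. The sensors and effectors Ern1, Eif2ak3, Atf4 and Ddit3 and the 5 genes most like Hspa5 were named too. Other genes named were chosen after their values were seen. Some genes of the lists are not reported here by name.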

Additional observations from a re-analysis of the deposited data

Results flagged for a closer look

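With TMM scaling, the effect of Hsf1 knockdown differed between the GCN5 and LacZ lines for 4 ER chaperones, by a test of that difference. In edgeR the interaction was 0.25 on the log2 scale for Hspa5 (SE 0.07, adjusted p = 0.016), 0.30 for Calr (SE 0.08, adjusted p = 0.0075), 0.36 for Hsp90b1 (SE 0.09, adjusted p = 0.0039) and 0.30 for Canx (SE 0.08, adjusted p = 0.0081). With ERCC scaling none of the 4 was called, and the TMM call of Hspa5 was lost without the first siControl GCN5 library. Depth coincides with the line, and the Hsf1 knockdown was less deep in the GCN5 line. Kat2a and Myc had interactions of 0.81 and 0.88 with TMM. None of these was tested as a part of the chaperone differences.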

How the results depend on the processing

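Scaling decided most calls, and the cause of the gap between the scalings was not tested. With ERCC scaling 0 members were called higher and 0 lower with Hsf1 knockdown in LacZ, and 0 in the interaction. With ERCC scaling and the replicate block, an alternative added after the data were seen, 6 were lower and 0 higher in LacZ, and 0 were called in the interaction. Over all genes TMM called 2571 higher and 2373 lower in LacZ, and ERCC scaling 125 and 970. DESeq2 called 0 members higher and 5 lower in LacZ.

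Signs that turned with ERCC scaling alone, or with the block added, were those of Xbp1 (-0.28, or -0.29) and Herpud1 (-0.22, or -0.23) in LacZ. With Hsf1 knockdown in the GCN5 line they were Hspa5 (-0.043, or -0.020), Pdia6 (-0.030, or -0.0031), Calr (-0.045, or -0.020), Dnajb9 (-0.052, or -0.040), Herpud1 (-0.014, or -0.0015) and Canx (-0.035, without the block only). Between the lines under siControl they were Hspa5 (-0.32, or -0.31), Pdia4 (-0.25, or -0.24), Pdia6 (-0.34, or -0.33), Xbp1 (-0.30, or -0.28) and Herpud1 (-0.39, or -0.36). In the interaction they were Xbp1 (0.12, or 0.15) and Herpud1 (0.21, or 0.23). Herpud1 between the lines, close to 0, also turned with DESeq2 size factors (-0.00021), no filter on low counts (-0.0068), DESeq2 (-0.00013) and only the compared groups fitted (-0.00054).

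Leaving out each replicate in turn gave 0 to 1 members higher and 4 to 5 lower in LacZ, 3 to 4 higher and 0 to 1 lower in the interaction, and 0 elsewhere. Signs turned in some of these fits for Atf6 (-0.12 to 0.061) in LacZ. With Hsf1 knockdown in the GCN5 line they turned for Calr (-0.012 to 0.028), Dnajb9 (-0.40 to 0.26), Herpud1 (-0.033 to 0.072), Hspa5 (-0.031 to 0.034), Pdia4 (-0.032 to 0.027) and Pdia6 (-0.0038 to 0.049). Between the lines they turned for Atf6 (-0.13 to 0.054), Calr (-0.074 to 0.011), Dnajb9 (-0.11 to 0.12) and Herpud1 (-0.037 to 0.063). The replicate block with TMM changed no count of members (1 higher and 5 lower in LacZ, 4 higher in the interaction, 0 elsewhere), and the numbers share no stated culture. The counts of 8 WT and 5 CKO peaks held with windows of 500 and 5000 bases, with peaks at or above the median signal, and with peaks that cover the start. Depth limits Dnajb9 most, at 26 to 111 counts.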

Other observations

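The ERSE also stands in the promoter windows of 9 tested genes beyond the 5 described: Acacb, Adcy3, Alg12, Creld2, Dnajc3, Ero1lb, Hnrnpa3, Pan2 and Syvn1. With Hsf1 knockdown in the LacZ line 1 of these rose, Alg12, a mannosyltransferase of the ER (0.31 on the log2 scale, edgeR adjusted p = 0.034), none fell and 8 did not pass, with a median of 0.07. No gene of the 14 with an ERSE was called in the GCN5 line. Syvn1, a ubiquitin ligase of ER-associated degradation, had 0.24 (adjusted p = 0.12), Dnajc3, a J-domain co-chaperone of the ER, 0.04 (adjusted p = 0.77) and Creld2, a secreted ER stress gene, -0.15 (adjusted p = 0.14) in LacZ. The genes were found by the sequence alone, and the one named for its call was singled out after its value was seen.

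At their starts, 16 of the 17 tested heat-shock genes had a WT c-MYC peak and 12 a CKO peak, against 77.3% and 35.2% of all tested genes. Of the 20 other ER chaperones and folding enzymes 20 had a WT peak and 9 a CKO peak, and of the 12 genes of the PERK and ATF4 branch 10 and 5.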
